A study of Homo sapiens with 6 samples.

Results

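A list of 50 genes of mitosis and the kinetochore was followed in A549 cells, an established human lung adenocarcinoma line, after knockdown of the RNA helicase DDX17. The members were chosen by symbol with earlier results of these data known, so no test over the list was made. They encode mitotic kinases, kinetochore and spindle proteins, cohesion regulators and cytokinesis factors, together with the proliferation marker MKI67 and the transcription factor FOXM1. All 50 symbols were found among the 29476 genes of the count table, and all 50 passed the low-count filter that left 15615 genes for testing. Polyadenylated RNA was sequenced from 3 libraries of cells transfected with a nontargeting siRNA (siCtrl) and 3 libraries of cells transfected with an siRNA against DDX17 (siDDX17), by lipid transfection in every library. The knockdown rested on 1 siRNA in 1 cell line. The genotype field of the labels reads control plasmid for siCtrl and DDX17 knockdown for siDDX17, whereas the titles and the study's methods give siRNAs. The study calls the libraries biological replicates and the labels only number them, so the p-values measure the spread between these libraries. Harvest at 48 h is stated for the RT-qPCR cells. Values for a library are given as CPM, the count of a gene scaled to a common library size with TMM factors, always in the order of replicate 1, 2 and 3, and a log2 fold change is siDDX17 over siCtrl.

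Mitosis begins when CDK1 bound to its cyclins is switched on by CDC25 phosphatases and reinforced by the Polo-like and Aurora kinases. The kinetochore is built on centromeric chromatin, where the NDC80 and SKA complexes hold the ends of spindle microtubules and the spindle checkpoint delays anaphase until every chromosome is attached. The anaphase-promoting complex, activated by CDC20, then marks cyclin B and securin for destruction, which frees separase to cut cohesin. Most of these genes are transcribed in a wave late in the cell cycle. The DREAM complex represses them in resting cells, and B-MYB and FOXM1 activate them in cycling cells. In lung adenocarcinoma, as in other tumours, their mRNA levels are widely used as a measure of proliferation.

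DDX17 was measured at 177, 184 and 206 CPM in siCtrl and 32.1, 30.8 and 30.4 CPM in siDDX17 (log2 fold change -2.60, SE 0.07, edgeR adjusted p = 5.89e-11). The groups did not overlap, so the level of the targeted gene matched the label of each library. The libraries held 30658136 to 39182371 counted reads in siCtrl and 35406246 to 36915297 in siDDX17, and the members had between 78 and 9334 counts in a library, with a median of 827.5. The 8 A549 markers checked were the epithelial genes KRT8, KRT18, KRT19 and CDH1 and the enzyme genes AKR1B10, AKR1C1, ALDH1A1 and ALDH3A1. All 8 were tested, with a summed level of 15371 to 16995 CPM in siCtrl and 12570 to 13170 CPM in siDDX17. At an edgeR adjusted p under 0.05, 6 of the 8 (75%) were lower, where 24.3% of all tested genes were. ALDH3A1 had the lowest log2 fold change (-0.95). Of 9 markers of leukocytes, endothelium and fibroblasts 7 were listed and 2 passed the filter, and their sum was 12.8 to 15.3 CPM in siCtrl and 26.8 to 31.2 CPM in siDDX17. The rise of that sum lay in ACTA2, a smooth muscle actin (log2 fold change 1.31, SE 0.09, edgeR adjusted p = 1.05e-07). COL1A1, a fibroblast collagen, did not pass (log2 fold change -0.27, SE 0.15, edgeR adjusted p = 0.149). The other listed markers were too low to be tested, and the part of these markers in the members' values was not tested.

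Nearly the whole list was lower in siDDX17. At an adjusted p under 0.05 in edgeR's quasi-likelihood test, 45 of the 50 members were lower, where 24.3% of all tested genes were, and 1 was higher, where 24.5% of all tested genes were. The 45 lower members made up 90% of the list. The median log2 fold change of the members was -0.62 against 0.01 for all tested genes, and the middle 50% of all tested genes lay between -0.27 and 0.33. In 45 members every siDDX17 library lay below every siCtrl library, which held for 27.7% of all tested genes. The shifts were moderate in size. With a log2 fold change under -1 required, 3 members remained, CENPM, CDK1 and SPC25, where 2.92% of all tested genes passed, and with one over 1 required, SKA2 alone passed, where 4.65% of all tested genes did. At the limits of the study's methods (p under 0.01 and a fold change of 1.5), 28 members were lower, where 8.03% of all tested genes were, and 1 was higher, where 11.0% were. Scaling by library size alone moved the median of all tested genes by 0.12 and raised the share of higher genes among all calls from 50.1% to 67.7%. Under it the members' median was -0.50, which is -0.63 relative to all tested genes. In RNA from a whole culture, fewer cells in late cell cycle and less of these mRNAs per cell cannot be told apart.

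**Figure D1:**
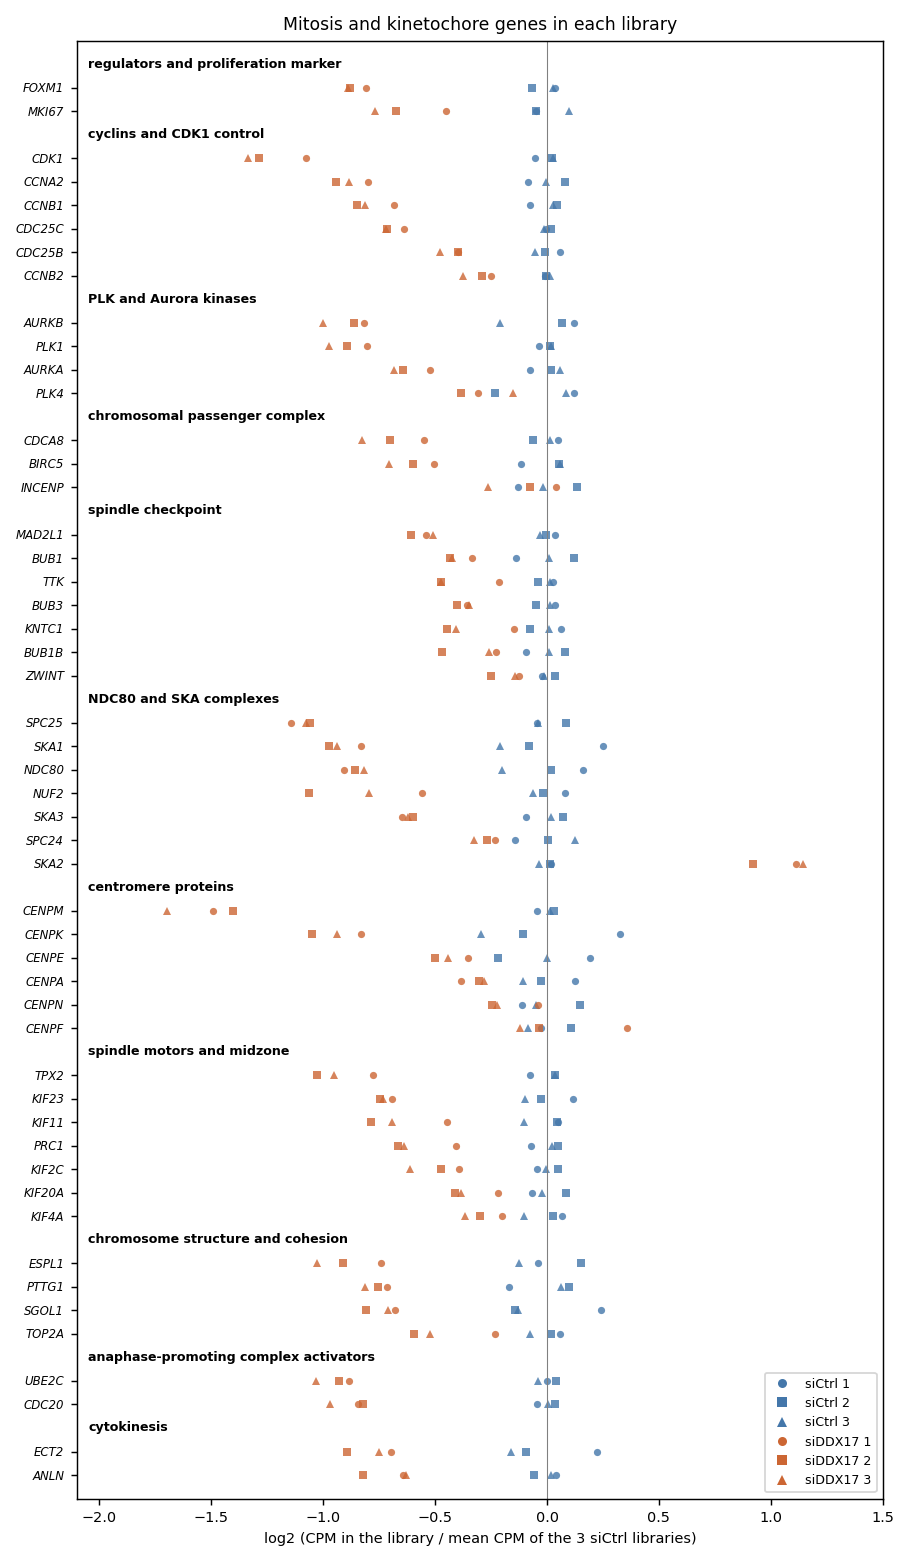
Each row is a member, grouped by role, and each symbol is a library placed on the x axis at the log2 ratio of its CPM to the mean CPM of the 3 siCtrl libraries. The siDDX17 symbols lie to the left of all siCtrl symbols in 45 of the 50 rows and to the right of them only for SKA2.

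The siDDX17 libraries did not shift equally. The median of the members, as log2 of the ratio to the siCtrl mean, was -0.53 in siDDX17 1, -0.67 in siDDX17 2 and -0.69 in siDDX17 3. For 38 of the 50 members siDDX17 1 was the highest library of its group. The siCtrl libraries had medians between -0.01 and 0.02. Without siDDX17 1 the members' median log2 fold change was -0.69, and without siDDX17 3 it was -0.59.

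**Figure D2:**
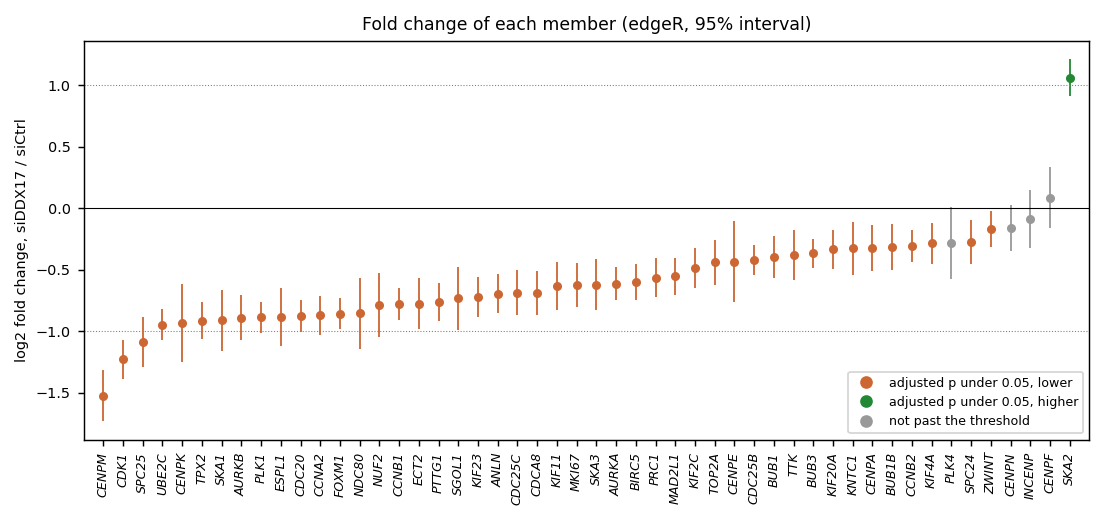
The y axis gives the log2 fold change of each member between siDDX17 and siCtrl, ordered from the lowest to the highest, with 95% intervals from the edgeR fit on 3 libraries a group. It falls to -1.52 for CENPM, reaches 1.06 for SKA2, and the intervals of the 4 members drawn in grey include 0.

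The promoters of these genes share letters that the choice of members did not use. Late cell-cycle promoters are known for the CHR element, which DREAM and B-MYB complexes contact, and for the CCAAT box, which the factor NF-Y binds. RefSeq gave 54 windows of 250 bases before to 50 bases after a transcription start for 41 of the 50 members on GRCh38.p14. The windows were searched on both strands for 2 CHR-type motifs. The first, TTTGAA, may appear on the strand shown as its reverse complement, written TTCAAA. The second one, TTCGAA, is its own reverse complement. At least 1 of these motifs was present in windows of 31 of the 41 members (75.6%), against 1705 of 11221 tested genes with such windows (15.2%). By window the counts were 35 of 54 (64.8%) and 1906 of 16225 (11.7%). The CCAAT box may appear on the strand shown as its reverse complement, ATTGG. It was present for 33 of the 41 members (80.5%), against 42.7% of the tested genes. Both kinds of motif were held by 25 members, and the share of all tested genes with both was not counted. The last 100 bases before the start are shown for 7 members, 5′ to 3′ on the strand of the gene. They were chosen to show CDC20, MKI67, ESPL1, KIF11 and KIF4A with both kinds of match close to the start. CCNA2 and PTTG1 were chosen with CCAAT matches but without the 2 CHR-type motifs searched. Other forms of the CHR element were not searched. Capitals mark the matches.
CDC20: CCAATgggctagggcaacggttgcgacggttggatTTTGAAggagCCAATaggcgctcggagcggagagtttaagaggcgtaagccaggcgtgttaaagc
MKI67: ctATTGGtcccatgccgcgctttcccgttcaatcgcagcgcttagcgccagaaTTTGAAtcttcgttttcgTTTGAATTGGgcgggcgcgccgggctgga
ESPL1: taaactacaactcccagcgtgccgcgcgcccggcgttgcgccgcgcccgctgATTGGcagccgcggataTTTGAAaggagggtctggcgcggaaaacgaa
KIF11: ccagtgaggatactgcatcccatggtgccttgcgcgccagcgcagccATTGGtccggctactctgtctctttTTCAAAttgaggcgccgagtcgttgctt
KIF4A: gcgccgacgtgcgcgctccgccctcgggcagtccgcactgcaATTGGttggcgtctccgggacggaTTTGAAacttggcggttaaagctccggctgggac
CCNA2: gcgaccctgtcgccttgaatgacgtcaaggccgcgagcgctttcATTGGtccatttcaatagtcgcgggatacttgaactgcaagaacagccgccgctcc
PTTG1: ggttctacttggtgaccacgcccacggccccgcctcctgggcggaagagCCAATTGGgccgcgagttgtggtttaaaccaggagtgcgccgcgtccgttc
These runs lie at chr1:43358881-43358980 (plus strand), chr10:128126424-128126523 (minus), chr12:53268199-53268298 (plus), chr10:92593030-92593129 (plus), chrX:70290004-70290103 (plus), chr4:121823884-121823983 (minus) and chr5:160421755-160421854 (plus). Only runs without an annotated exon base of their own gene were taken for display. In MKI67 the second TTTGAA and the following ATTGG share letters. In ESPL1, KIF11 and KIF4A the CCAAT box came first and the CHR-type match after it, in KIF4A at -58 and -34 bases from the start.

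**Figure D3:**
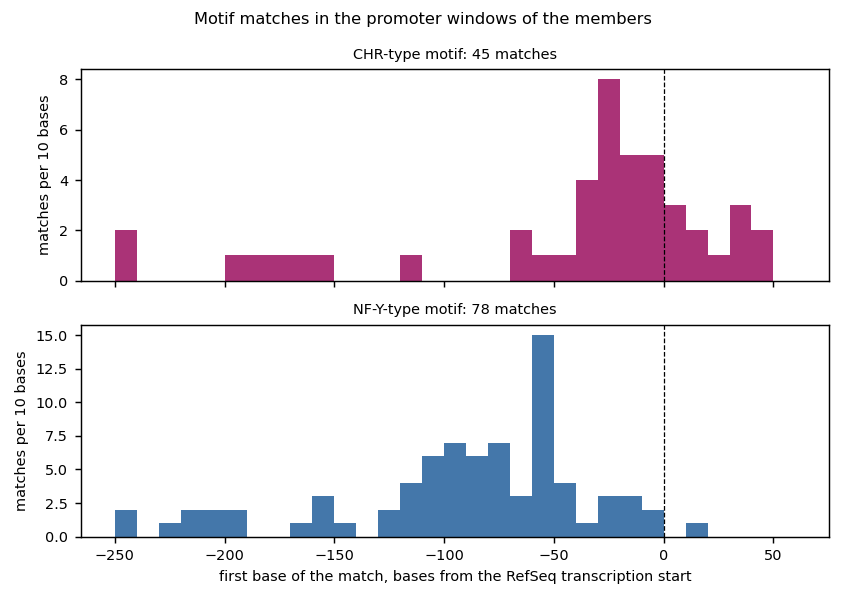
The x axis is the distance in bases of the first base of a match from the RefSeq transcription start, counted over the 54 windows in bins of 10 bases, and the y axis is the number of matches. Of the 45 CHR-type matches 34 lay within 50 bases of the start, and of the 78 NF-Y-type matches 57 lay between 120 and 20 bases before it, and a match in overlapping windows of a gene counts in each.

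Members with and without a CHR-type match had similar median log2 fold changes. The 31 members with a CHR-type match had a median log2 fold change of -0.63, and 27 of them were lower. The 4 members of the list that did not pass, CENPF, CENPN, INCENP and PLK4, all held both a CHR-type and a CCAAT match. The 10 members with windows but no such match had a median of -0.62, and 9 of them were lower while the other was SKA2. Only the 2 CHR-type motifs were searched, so a CHR element written with other letters would be missed. The part of the CHR element in these changes was not tested. Among all tested genes with windows, 26.0% of the 1705 with a CHR-type match and 25.3% of the 9516 without one were lower, and both groups had a median of 0.00. AURKA, BIRC5, BUB3, CENPM, FOXM1, KNTC1, TPX2, TTK and UBE2C had no window in the table.

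The regulators and the proliferation marker fell together. FOXM1, which activates genes of late cell cycle, was at 64.2, 59.8 and 63.8 CPM in siCtrl and 35.7, 34.1 and 33.8 CPM in siDDX17 (log2 fold change -0.86, SE 0.06, edgeR adjusted p = 1.02e-07). MKI67, the gene of the Ki-67 antigen that coats mitotic chromosomes, was at 47.1, 47.1 and 52.2 CPM in siCtrl and 35.7, 30.6 and 28.7 CPM in siDDX17 (log2 fold change -0.63, SE 0.08, edgeR adjusted p = 3.30e-05). In both genes all siDDX17 libraries were below all siCtrl libraries, and the MKI67 level of siDDX17 1 was the closest to the controls.

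All 6 genes of the cyclin and CDK1 group were lower, with a median log2 fold change of -0.73. CDK1, the kinase that drives entry into mitosis, was at 55.7, 58.7 and 58.9 CPM in siCtrl and 27.4, 23.7 and 22.9 CPM in siDDX17 (log2 fold change -1.23, SE 0.07, edgeR adjusted p = 3.19e-08), so its siDDX17 level was 57.3% lower in the fit. CCNB1, its main mitotic cyclin, was at 142, 154 and 152 CPM in siCtrl and 92.9, 83 and 84.9 CPM in siDDX17 (log2 fold change -0.78, SE 0.06, edgeR adjusted p = 3.66e-07). The groups stood well apart in both genes. CCNA2, the cyclin of S phase and early mitosis, fell by a similar amount (log2 fold change -0.87, SE 0.08, edgeR adjusted p = 7.58e-07), and so did CDC25C, a phosphatase that activates CDK1 (log2 fold change -0.69, SE 0.08, edgeR adjusted p = 1.92e-05). The related phosphatase CDC25B fell less (log2 fold change -0.42, SE 0.06, edgeR adjusted p = 3.65e-05). CCNB2, the second B-type cyclin, changed least of the group at 43.5, 43.6 and 44.2 CPM in siCtrl and 36.8, 35.8 and 33.7 CPM in siDDX17 (log2 fold change -0.30, SE 0.06, edgeR adjusted p = 0.000982), still without overlap between the groups.

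Of the Polo-like and Aurora kinases 3 of 4 were lower, with a median of -0.75. PLK1, which acts on centrosomes, kinetochores and cytokinesis, was at 116, 120.4 and 121 CPM in siCtrl and 68.3, 64.3 and 60.8 CPM in siDDX17 (log2 fold change -0.89, SE 0.06, edgeR adjusted p = 7.88e-08). AURKB, the kinase that corrects wrong kinetochore attachments, was at 73.3, 70.5 and 58.3 CPM in siCtrl and 38.2, 37.03 and 33.6 CPM in siDDX17 (log2 fold change -0.89, SE 0.08, edgeR adjusted p = 1.79e-06). AURKA, the centrosome and spindle kinase, was at 77.8, 83.03 and 85.3 CPM in siCtrl and 57.03, 52.6 and 51.01 CPM in siDDX17 (log2 fold change -0.62, SE 0.06, edgeR adjusted p = 3.47e-06). These 3 kinases showed no overlap between the groups, although AURKB varied in siCtrl, where replicate 3 was lowest. PLK4, which starts centriole duplication, was at 5.14, 4.02 and 5.02 CPM in siCtrl and 3.81, 3.62 and 4.26 CPM in siDDX17 (log2 fold change -0.28, SE 0.13, edgeR adjusted p = 0.0996) and did not pass. Its siCtrl 2 value lay below that of siDDX17 3, and without siCtrl 2 it passed at a log2 fold change of -0.39 (edgeR adjusted p = 0.0369).

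The chromosomal passenger complex, which carries AURKB to the inner centromere, split in the test. BIRC5, the subunit survivin, was at 82.7, 92.99 and 93.2 CPM in siCtrl and 63.2, 59.3 and 54.9 CPM in siDDX17 (log2 fold change -0.60, SE 0.07, edgeR adjusted p = 1.00e-05), and CDCA8, the subunit borealin, was lower as well (log2 fold change -0.69, SE 0.08, edgeR adjusted p = 1.45e-05). INCENP, the scaffold that binds and activates AURKB, was at 7.74, 9.30 and 8.35 CPM in siCtrl and 8.69, 8.04 and 7.06 CPM in siDDX17 (log2 fold change -0.09, SE 0.11, edgeR adjusted p = 0.517). Its groups overlapped, its 95% interval ran from -0.33 to 0.14, and its sign turned to 0.03 when libraries were scaled by size alone.

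All 7 genes of the spindle checkpoint were lower, but their median of -0.37 was closer to 0 than that of most other groups. BUB3, which targets checkpoint proteins to kinetochores, was at 129, 121 and 126 CPM in siCtrl and 98.02, 94.96 and 98.5 CPM in siDDX17 (log2 fold change -0.37, SE 0.05, edgeR adjusted p = 8.54e-05). MAD2L1, whose product MAD2 inhibits CDC20, had the most negative change (log2 fold change -0.55, SE 0.07, edgeR adjusted p = 2.42e-05). BUB1, the checkpoint kinase at kinetochores (log2 fold change -0.39, SE 0.08, edgeR adjusted p = 0.00104), and TTK, the kinase MPS1 that starts the signal (log2 fold change -0.38, SE 0.09, edgeR adjusted p = 0.00415), had log2 fold changes close to that of BUB3. BUB1B, the gene of BUBR1 in the mitotic checkpoint complex, was at 16.5, 18.7 and 17.8 CPM in siCtrl and 15.1, 12.8 and 14.7 CPM in siDDX17 (log2 fold change -0.31, SE 0.09, edgeR adjusted p = 0.00882). KNTC1, the ROD subunit of the complex that brings dynein to kinetochores, was at 12.1, 11.01 and 11.7 CPM in siCtrl and 10.5, 8.53 and 8.77 CPM in siDDX17 (log2 fold change -0.33, SE 0.10, edgeR adjusted p = 0.0143). ZWINT, which links that complex to the outer kinetochore, was at 27.1, 28.2 and 27.2 CPM in siCtrl and 25.2, 23.1 and 24.9 CPM in siDDX17 (log2 fold change -0.17, SE 0.07, edgeR adjusted p = 0.0492). In each of these genes the groups did not overlap, but in KNTC1 and ZWINT the gap between the nearest libraries was small. The call for ZWINT was at the threshold and held in 2 of the 15 alternative fits, RLE scaling and the fit without siCtrl 1. Its log2 fold change was -0.20 to -0.14 in the fits without another library. KNTC1 no longer passed without siDDX17 2 (-0.27, edgeR adjusted p = 0.0711) or siDDX17 3 (-0.29, edgeR adjusted p = 0.0691). With scaling by library size alone BUB1B (-0.19), KNTC1 (-0.21) and ZWINT (-0.05) did not pass. In both limma fits on FPKM BUB1B, KNTC1, ZWINT and TTK did not pass.

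The microtubule-binding complexes of the outer kinetochore held both the strong falls and the single rise. Of the 7 NDC80 and SKA genes 6 were lower, and the median was -0.79. SPC25, a subunit of the NDC80 complex, was at 10.7, 11.7 and 10.7 CPM in siCtrl and 4.98, 5.29 and 5.22 CPM in siDDX17 (log2 fold change -1.09, SE 0.09, edgeR adjusted p = 8.49e-07). NDC80 itself (log2 fold change -0.86, SE 0.13, edgeR adjusted p = 0.000160) and NUF2 (log2 fold change -0.79, SE 0.12, edgeR adjusted p = 0.000130), the subunits that touch the microtubule, were lower by nearly as much. SPC24, the partner of SPC25, was at 17.7, 19.6 and 21.3 CPM in siCtrl and 16.7, 16.2 and 15.6 CPM in siDDX17 (log2 fold change -0.28, SE 0.08, edgeR adjusted p = 0.0138), a smaller fall that did not pass without siCtrl 3 (-0.21, edgeR adjusted p = 0.0643), without siDDX17 3 (-0.25, edgeR adjusted p = 0.0653) or with scaling by library size alone (-0.15, edgeR adjusted p = 0.142).

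Within the SKA complex, which tracks microtubule ends with NDC80, the genes of its 3 subunits moved in opposite directions. SKA1 was at 17.3, 13.8 and 12.6 CPM in siCtrl and 8.17, 7.41 and 7.61 CPM in siDDX17 (log2 fold change -0.91, SE 0.12, edgeR adjusted p = 2.57e-05). SKA3 was lower too (log2 fold change -0.62, SE 0.09, edgeR adjusted p = 0.000123). SKA2 was at 25.96, 25.9 and 24.98 CPM in siCtrl and 55.3, 48.5 and 56.5 CPM in siDDX17 (log2 fold change 1.06, SE 0.07, edgeR adjusted p = 7.71e-08), a level 2.09-fold higher in siDDX17. Every siDDX17 library stood far above every siCtrl library in SKA2, and it was higher in all 15 alternative fits, with a log2 fold change between 1.02 and 1.19. The gene SKA2 occupies bases 59109857 to 59155260 of chromosome 17, minus strand (GENCODE release 44, GRCh38), and by the RefSeq starts of the promoter table it begins 560 bases from PRR11, which runs the other way. PRR11, named here after its values were seen, was at 14.2, 15.1 and 15.1 CPM in siCtrl and 14.9, 13.4 and 12.98 CPM in siDDX17 (log2 fold change -0.11, SE 0.08, edgeR adjusted p = 0.310) and did not pass. The SKA2 promoter window held 5 CCAAT matches and no CHR-type match.

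The centromere proteins ranged in log2 fold change from -1.52 to 0.09, and 4 of 6 were lower. CENPM, a subunit of the inner kinetochore network that sits on centromeric chromatin, was at 14.6, 15.4 and 15.2 CPM in siCtrl and 5.37, 5.71 and 4.65 CPM in siDDX17 (log2 fold change -1.52, SE 0.10, edgeR adjusted p = 5.36e-08), the lowest fold change of the 50, with no overlap and 65.3% lower in the fit. CENPK, another subunit of that network, was at 12.6, 9.30 and 8.17 CPM in siCtrl and 5.63, 4.83 and 5.22 CPM in siDDX17 (log2 fold change -0.94, SE 0.15, edgeR adjusted p = 0.000151), with siCtrl 1 well above the other siCtrl libraries. CENPA, the histone variant that defines the centromere, was at 15.1, 13.6 and 12.9 CPM in siCtrl and 10.6, 11.2 and 11.4 CPM in siDDX17 (log2 fold change -0.32, SE 0.09, edgeR adjusted p = 0.00746), and its groups were close but apart. The call for CENPA did not hold with scaling by library size alone (-0.20, edgeR adjusted p = 0.0968). CENPE, a kinetochore motor with the lowest level of all members, was lower (log2 fold change -0.43, SE 0.15, edgeR adjusted p = 0.0302) and lost the call when any library other than siCtrl 2 was left out (-0.48 to -0.34), with scaling by library size alone (-0.31, edgeR adjusted p = 0.123) and with DESeq2 (-0.44, adjusted p = 0.0835). CENPN, which reads the CENPA nucleosome, was at 22.7, 27.1 and 23.6 CPM in siCtrl and 23.8, 20.7 and 20.9 CPM in siDDX17 (log2 fold change -0.16, SE 0.09, edgeR adjusted p = 0.134), and it passed without siCtrl 1 (-0.22, edgeR adjusted p = 0.0147). CENPF, a large outer kinetochore protein, was at 13.5, 14.8 and 13 CPM in siCtrl and 17.6, 13.4 and 12.7 CPM in siDDX17 (log2 fold change 0.09, SE 0.12, edgeR adjusted p = 0.568). CENPF and CENPN did not pass with all libraries, and siDDX17 1 was the highest library of all for CENPF, whose change turned to -0.08 without it.

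All 7 spindle motors and midzone genes were lower, with a median of -0.57. TPX2, which activates AURKA and nucleates spindle microtubules, was at 88.2, 95.4 and 95.3 CPM in siCtrl and 54.2, 45.6 and 48 CPM in siDDX17 (log2 fold change -0.92, SE 0.07, edgeR adjusted p = 2.54e-07). Next in size were KIF23, a motor of the central spindle (log2 fold change -0.72, SE 0.07, edgeR adjusted p = 3.95e-06), and KIF11, the motor that pushes the poles apart (log2 fold change -0.63, SE 0.09, edgeR adjusted p = 6.51e-05). PRC1, which bundles midzone microtubules, had a log2 fold change of -0.57, KIF2C, a microtubule depolymerase, one of -0.49, and KIF20A, a motor of the midzone, one of -0.33. KIF4A, the chromokinesin that works with PRC1, was at 25.3, 24.6 and 22.5 CPM in siCtrl and 21.02, 19.6 and 18.7 CPM in siDDX17 (log2 fold change -0.29, SE 0.08, edgeR adjusted p = 0.00723), the smallest change of this group. Its groups did not overlap, but it did not pass with scaling by library size alone (-0.16, edgeR adjusted p = 0.111). In both limma fits on FPKM KIF4A and KIF20A did not pass.

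Genes of chromosome structure and cohesion were lower in 4 of 4 cases, with a median of -0.75. PTTG1, the gene of securin, was at 86.7, 104 and 102 CPM in siCtrl and 59.5, 57.9 and 55.6 CPM in siDDX17 (log2 fold change -0.76, SE 0.07, edgeR adjusted p = 1.72e-06). ESPL1, the gene of separase, which securin holds inactive, was lower as well (log2 fold change -0.89, SE 0.11, edgeR adjusted p = 1.80e-05). SGOL1, the shugoshin that guards centromeric cohesin, followed (log2 fold change -0.73, SE 0.12, edgeR adjusted p = 0.000212). TOP2A, the topoisomerase that untangles sister chromatids, was at 111, 108 and 101 CPM in siCtrl and 90.9, 70.5 and 74.2 CPM in siDDX17 (log2 fold change -0.44, SE 0.08, edgeR adjusted p = 0.000710). TOP2A had the smallest change of the 4, and its siDDX17 1 value was nearest to the controls, though still below them. It did not pass with limma on log2(FPKM + 1) (limma adjusted p = 0.0592) or on log2(FPKM + 0.1) (limma adjusted p = 0.0566).

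The genes that act with the anaphase-promoting complex and the cytokinesis genes were lower in all 4 cases. UBE2C, the enzyme that starts ubiquitin chains on the substrates of the complex, was at 88.2, 90.5 and 85.6 CPM in siCtrl and 47.7, 46.3 and 43.1 CPM in siDDX17 (log2 fold change -0.95, SE 0.06, edgeR adjusted p = 4.46e-08). CDC20, the subunit that recruits those substrates, was at 119, 125 and 122 CPM in siCtrl and 68.1, 69.2 and 62.3 CPM in siDDX17 (log2 fold change -0.88, SE 0.06, edgeR adjusted p = 8.79e-08). The groups were far apart in both. ECT2, which activates RhoA at the cleavage site, was at 48.6, 39.02 and 37.2 CPM in siCtrl and 25.7, 22.4 and 24.8 CPM in siDDX17 (log2 fold change -0.78, SE 0.10, edgeR adjusted p = 2.00e-05), with siCtrl 1 above the other siCtrl libraries. ANLN, the anillin scaffold of the contractile ring, was lower by a similar amount (log2 fold change -0.70, SE 0.07, edgeR adjusted p = 5.34e-06).

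Levels between genes were compared on the deposited FPKM values, which are per length. In siCtrl the highest members were PTTG1 with 77.6 ± 6.16 FPKM (SD, n = 3), CCNB1 with 63.0 ± 1.65, UBE2C with 62.7 ± 1.58, CDC20 with 61.1 ± 0.409 and CDC25B with 59.6 ± 3.26. The lowest were CENPF with 1.22 ± 0.0651, PLK4 with 1.09 ± 0.166 and CENPE with 0.337 ± 0.0551, and the median of the 50 was 7.78 FPKM. Of the 49 pairs of neighbours in this order 36 had overlapping library values, among them CCNB1, UBE2C and CDC20, so only the broad order is set. In siDDX17 PTTG1, at 50.2 ± 1.49 FPKM, overlapped with CDC25B, at 48.6 ± 1.12 FPKM. In siDDX17 SKA2 moved from rank 25, at 7.83 ± 0.251 FPKM, to rank 10, at 17.9 ± 1.64 FPKM. CENPM moved from rank 19, at 10.1 ± 0.101 FPKM, to rank 32, at 3.84 ± 0.351 FPKM. CDK1 moved from rank 9, at 26.0 ± 0.474 FPKM, to rank 15, at 12.1 ± 1.18 FPKM.

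Related genes outside the list leaned the same way but less evenly. Of 119 genes in 6 further lists of mitosis and its regulators 75 (63.0%) were lower and 7 (5.88%) were higher, against 24.3% and 24.5% of all tested genes, with a median log2 fold change of -0.37. Without siCtrl 3 or without siDDX17 1 the number of higher genes was 4. Of 27 other kinetochore genes 17 (63.0%) were lower and 3 (11.1%) higher, with a median of -0.45. APITD1, a histone-fold protein of the inner kinetochore, was at 3.13, 3.29 and 3.04 CPM in siCtrl and 0.778, 0.686 and 1.04 CPM in siDDX17 (log2 fold change -1.91, SE 0.19, edgeR adjusted p = 2.66e-06), and OIP5, a subunit of the complex that prepares centromeres for new CENPA, at 9.33, 13.5 and 12.5 CPM in siCtrl and 3.89, 3.68 and 3.71 CPM in siDDX17 (log2 fold change -1.64, SE 0.14, edgeR adjusted p = 5.03e-07). The counts of APITD1 were low, at 94 to 114 in a siCtrl library and 25 to 40 in a siDDX17 library. MAD1L1, the kinetochore anchor of MAD2, was at 4.10, 5.07 and 5.50 CPM in siCtrl and 14.9, 16.05 and 14.5 CPM in siDDX17 (log2 fold change 1.63, SE 0.11, edgeR adjusted p = 8.79e-08). ZW10, a partner of KNTC1, was at 4.16, 3.78 and 5.47 CPM in siCtrl and 10.7, 9.16 and 10.6 CPM in siDDX17 (log2 fold change 1.17, SE 0.13, edgeR adjusted p = 9.25e-06). These 4 were picked as the 2 lowest and 2 highest called genes of the 27, so their lack of overlap between the groups is no separate result. Every siDDX17 library lay below every siCtrl library in 17 of the 27 genes and above in 3. Among all 15615 tested genes this held for 4323 and 4499. MAD1L1 rose while MAD2L1 fell, and ZW10 rose while KNTC1 fell.

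The remaining lists are set beside the same background of 24.3% lower and 24.5% higher among all tested genes. Among 23 further spindle and cytokinesis genes 19 (82.6%) were lower and 1 was higher, with a median of -0.48. KIF18B, a motor of astral microtubules (-1.70), and KIFC1, a minus-end motor (-1.03), had the lowest log2 fold changes, and NUMA1, which anchors dynein at the poles, was higher (0.51). Of 13 other mitotic kinases and phosphatases 9 (69.2%) were lower and 1 higher, with a median of -0.51, from CCNF, the gene of cyclin F (-1.43), and GSG2, the gene of haspin (-0.88), to the phosphatase CDC14B (0.33). Cohesin and condensin genes were lower in 13 of 21 cases (61.9%) and higher in 0, with a median of -0.26. At the low end were NCAPG of condensin (-0.89) and ESCO2, which acetylates cohesin (-0.74), whereas the cohesin ring gene SMC3 did not pass (0.02). Of 17 genes of the anaphase-promoting complex and its regulators 7 (41.2%) were lower and 1 (5.88%) was higher, with a median of -0.07, from the inhibitor FBXO5 (-0.76) and the subunit CDC27 (-0.69) to ANAPC15 (0.27).

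**Figure D4:**
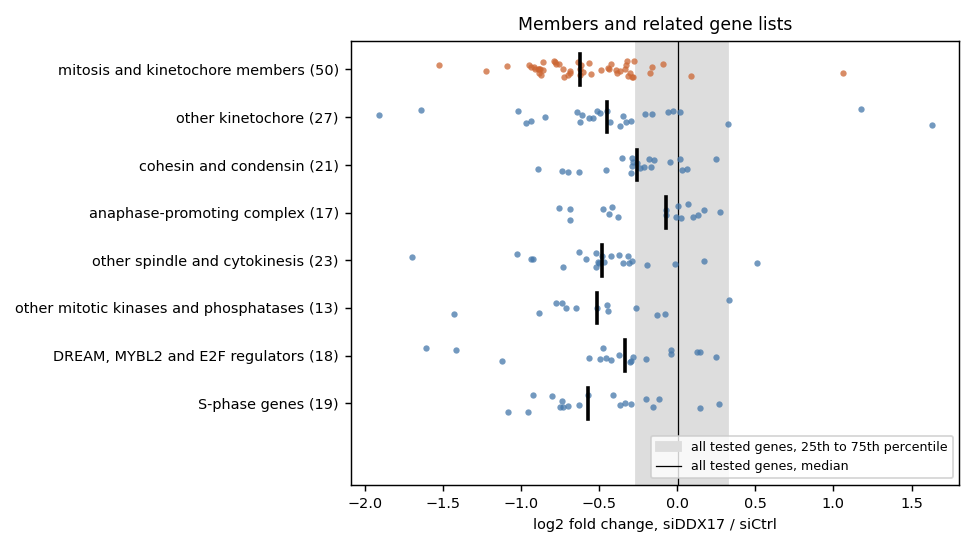
Each point is a gene at its log2 fold change between siDDX17 and siCtrl on the x axis, in rows by gene list with the number of tested genes, and a black bar marks the median of each list. The members have a median of -0.62 and the anaphase-promoting complex one of -0.07, and the grey band is the middle 50% of all tested genes, from -0.27 to 0.33.

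Regulators of the late cell-cycle wave changed as a mixed group. Of 18 DREAM, MYBL2 and E2F genes 10 (55.6%) were lower and 1 was higher, with a median of -0.34. TFDP1, the dimer partner of E2F factors (log2 fold change -1.61, SE 0.07, edgeR adjusted p = 1.90e-09), and E2F7, an E2F that represses (log2 fold change -1.41, SE 0.14, edgeR adjusted p = 2.61e-06), had the lowest values. E2F1 (log2 fold change -0.56, SE 0.08, edgeR adjusted p = 0.000112) and MYBL2, the gene of B-MYB (log2 fold change -0.29, SE 0.06, edgeR adjusted p = 0.000669), were lower by less. CDKN1A, the p53-induced inhibitor of CDKs, was lower too, at 452, 472 and 501 CPM in siCtrl and 210.1, 228 and 216 CPM in siDDX17 (log2 fold change -1.12, SE 0.06, edgeR adjusted p = 1.26e-08), with no overlap. NFYB, a subunit of the CCAAT-binding factor, was the gene that was higher (0.25), whereas its partners NFYA (-0.49) and NFYC (-0.48) were lower. Of 19 S-phase genes 14 (73.7%) were lower and 1 higher, with a median of -0.57, from CCNE2 (-1.08) and CDC6 (-0.96) to GINS3 (0.27). Most S-phase genes were thus lower as well, and no test of a difference between the lists was made.

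The 3′ UTRs of the canonical transcripts were also searched for matches to the siRNA seeds. The 7 letters TATTGCT, which pair with bases 2 to 8 of the antisense strand of the DDX17 siRNA, were present in 5 of the 50 members (10%), BUB3, CENPK, MAD2L1, SKA3 and TPX2, against 14.5% of 12987 genes. ATGGGTG, for the sense strand, was in 3 members (6%) against 10.5%. For the control siRNA TCGGAGA was in 1 member (2%) against 2.13%, and TGTCACG in 3 members (6%) against 3.07%. The median log2 fold change was -0.62 in the 5 members with TATTGCT and -0.63 in the 45 without it, and SKA2, CENPM, CDK1 and SPC25 held none of the 4 seed matches.

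Shared exon sequence limits some values, since the use of strand in the authors' counting is not given in the sources used here. On the current annotation 4 members shared exon bases with another gene on the same strand and 14 with one on the opposite strand. In 10 members that other gene had more than 10% of the member's lowest count, namely FOXM1, CCNA2, CDC25C, NUF2, SPC24, CENPA, CENPN, KIF20A, KIF4A and ANLN. SLC35F6 shared 138 exon bases with CENPA and had up to 4033 counts, where CENPA had at least 390. The part of these counts in the members' values was not tested. Exon overlap was not looked up for genes of the other lists. Copies of members, found by their names alone, were low, with up to 31 counts for CDC20P1, 1 for PTTG2 and 2 for UBE2CP2. Their sequences were not compared with those of the members.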

How the data were processed

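The authors sequenced polyadenylated RNA with a dUTP strand-marking kit, mapped the reads to GRCh38 with TopHat2 and deposited raw counts of reads per gene. They also deposited FPKM values, scaled for gene length and library size. The counting program, annotation release and use of strand are not given in the sources used here. From the counts, all 6 libraries were fitted in edgeR 4.0.16 (R 4.3.3) by glmQLFit and glmQLFTest, after filterByExpr and with TMM factors, with Benjamini-Hochberg adjustment over 15615 genes. FPKM served for levels between genes and, as log2(FPKM + 1) and log2(FPKM + 0.1), for limma 3.58.1. Other alternatives were DESeq2 1.42.0, other scalings, filters and call rules, a replicate block and leaving out each library. The scripts were tested on simulated data.

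The members and lists were chosen with earlier results of these data known. Values per library are given for DDX17, members past a log2 fold change of 1, the 8 lowest and 8 highest called members, the member with the highest FPKM in each role, 10 well-known members, members not called and any member turned by leaving out a library. Of the other lists, the 2 lowest and 2 highest called genes and CDKN1A, MYBL2 and E2F1 were named, and further genes named in those lists were chosen after their values were seen. Gene positions and UTRs came from GENCODE release 44 and promoter windows from RefSeq (GRCh38.p14), read with pandas 2.3.3 in Python 3.11.15. The cell assays, RT-qPCR values and splicing data were not analysed here.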

Additional observations from a re-analysis of the deposited data

How the results depend on the processing

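The number of lower members was 35 to 45 in every alternative fit, against 45 in the main result, and SKA2 was the higher member in each. Among all tested genes 3798 were lower in the main result. The alternatives ran from 2116 with limma on log2(FPKM + 1) to 4312 without siCtrl 1. Under the stricter call rules the number of lower members was 3 with an absolute log2 fold change over 1 and 28 at the limits of the methods. For all tested genes the lower shares under these rules were 2.92% and 8.03%. In all, 36 members, 35 lower and SKA2 higher, passed in all 15 alternative fits, and 47 had a log2 fold change below 0 in all of them. The shares of all tested genes that did so were not counted. The log2 fold change of INCENP turned to 0.032 with library size only, 0.023 with limma on log2(FPKM + 1) and 0.032 with limma on log2(FPKM + 0.1), and leaving out each library gave CENPF -0.075 to 0.18, the first without siDDX17 replicate 1. Leaving out each library in turn gave 41 to 45 lower members and 1 higher. For the 119 genes of the other mitosis lists it gave 63 to 76 lower and 4 to 8 higher. Over all tested genes it gave 3101 to 4312 lower and 3189 to 4220 higher. In the other mitosis lists the number of higher genes was 14 with library size only, 4 with DESeq2, 13 with limma on log2(FPKM + 1) and 12 with limma on log2(FPKM + 0.1), and 48 were lower with limma on log2(FPKM + 1). Among all tested genes 3819 were higher in the main result, 5230 with library size only and 3236 with DESeq2. In the limma fits 4838 and 4776 were higher. With an absolute log2 fold change over 1 the other mitosis lists held 9 lower and 2 higher genes, where 2.92% and 4.65% of all tested genes passed. At the limits of the methods they held 31 lower and 2 higher, where 8.03% and 11.0% of all tested genes passed. The causes of these differences were not tested. With the replicate number as a block 44 members were lower and 1 was higher. Same-numbered libraries correlated at 0.01, 0.04 and -0.06 in their deviations from the group means, so the numbers were not taken as pairs. The share of higher genes among all calls was 69.6% and 69.2% in the limma fits on FPKM, against 50.1% in the main result. The same 10 members lost the call in both limma fits. They were BUB1B, TTK, KNTC1, ZWINT, SPC24, CENPA, CENPE, KIF20A, KIF4A and TOP2A. CENPE had 78 to 123 counts in a library and the part of depth in its lost calls was not tested.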
